A study of Homo sapiens with 6 samples.

Results

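The protocadherin family was described here as every gene with a symbol that starts with PCDH, in U87 glioma cells with a knockdown of PCGF1 and in their negative control cells. The members were taken by symbol alone, from array probe sets that the platform annotation ties to exactly 1 gene. The family was proposed with results of this comparison known, so the values below describe its members, and nothing about the family as a whole is read from how many of them changed. It held 67 of the 18132 genes tested, namely 15 PCDHA, 18 PCDHB and 22 PCDHG genes of the clustered type and 12 non-clustered genes.

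Total RNA was measured on 6 Affymetrix arrays. The 3 knockdown arrays came from U87 cells that had received a PCGF1-shRNA lentivirus, and their names carry the tag T0. The 3 control arrays came from U87 cells that had received the NC lentivirus, and their names carry the tag T1. T0 and T1 are not explained, so whatever they stand for cannot be told apart from the knockdown. U87 is an established human glioma line, and both groups grew in DMEM with fetal bovine serum. The labels call the 3 arrays of each group biological replicates, but separate cultures are stated nowhere, and p-values therefore reflect only how much these samples differed, which may be technical. The labels give neither the number of hairpins nor whether cells were pooled or cloned after infection.

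Protocadherins are calcium-dependent adhesion proteins of the cadherin superfamily, most abundant in the nervous system. The clustered genes lie in a row on chromosome 5. Each PCDHA and PCDHG gene has its own promoter and first exon, which is spliced to constant exons shared by its cluster, while each PCDHB gene is a single coding exon. Single neurons use different sets of these promoters, and binding of the same isoform on the facing membrane lets a neuron tell its own branches from those of other cells. CTCF and cohesin loop a distant enhancer to the chosen promoters, most of which carry a short conserved element with a CGCT core. Non-clustered protocadherins are separate genes on several chromosomes, and their cytoplasmic tails act on the actin cytoskeleton and on other cadherins. PCGF1 belongs to PRC1.1, a repressive Polycomb complex that its subunit KDM2B brings to unmethylated CpG-rich DNA.

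The promoter sequences show what the PCDHB members share and what the non-clustered members that changed look like around their starts. RefSeq promoter windows of GRCh38.p14, 300 bases each with 250 before and 50 after the start, were found for 57 of the 67 members. In each cluster the 9-letter word with a CGCT core that occurred in the windows of the most genes was taken, reading each window in the direction of its gene. Both strands were read when the windows holding a chosen word were counted. The words were therefore chosen on these windows. The PCDHB word was GGTGGCGCT, present in 13 of 14 PCDHB genes with a window and in 0 of 13 PCDHA, 0 of 20 PCDHG and 0 of 10 non-clustered genes. Across all 35116 promoter windows, 176 or 0.501% held it. The 6 stretches below, 41 bases each and read from the plus strand of chromosome 5, show it in capitals in 3 genes that rose in the knockdown arrays (PCDHB5, PCDHB10 and PCDHB14) and in 3 that were not called (PCDHB7, PCDHB4 and PCDHB8).
PCDHB5 (chr5:141135174-141135214): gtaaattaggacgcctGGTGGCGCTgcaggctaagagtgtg
PCDHB10 (chr5:141192294-141192334): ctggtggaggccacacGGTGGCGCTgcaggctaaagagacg
PCDHB14 (chr5:141223258-141223298): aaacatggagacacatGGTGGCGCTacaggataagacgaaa
PCDHB7 (chr5:141172561-141172601): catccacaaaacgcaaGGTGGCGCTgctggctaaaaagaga
PCDHB4 (chr5:141121718-141121758): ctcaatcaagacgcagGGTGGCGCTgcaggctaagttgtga
PCDHB8 (chr5:141177772-141177812): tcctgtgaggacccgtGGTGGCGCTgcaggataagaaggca

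Counted from the start, with negative numbers before it, the word began at position -16 in PCDHB5, -43 in PCDHB10 and -69 in PCDHB14. It was found in 3 of 3 called PCDHB genes with a window and in 10 of 11 that were not called. PCDHB1 was the gene without it. The called PCDHB6 had no window and could not be read. The corresponding words of the other clusters were GATGTCGCT, found in 9 of 13 PCDHA genes and 0.105% of all windows, and GCGCCGCTG, found in 10 of 20 PCDHG genes and 1.28% of all windows. The CGCT core on its own was in 70% of all windows. The whole PCDHB14 window, with the word in capitals, and the whole PCDHB1 window, in which it was not found, are given next on the plus strand for comparison.
PCDHB14 (chr5:141223093-141223392): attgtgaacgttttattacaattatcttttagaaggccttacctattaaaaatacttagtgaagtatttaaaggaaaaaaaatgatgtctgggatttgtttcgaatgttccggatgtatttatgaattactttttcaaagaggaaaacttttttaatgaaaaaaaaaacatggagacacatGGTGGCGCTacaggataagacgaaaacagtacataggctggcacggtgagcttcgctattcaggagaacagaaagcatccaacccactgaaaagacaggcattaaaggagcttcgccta
PCDHB1 (chr5:141051124-141051423): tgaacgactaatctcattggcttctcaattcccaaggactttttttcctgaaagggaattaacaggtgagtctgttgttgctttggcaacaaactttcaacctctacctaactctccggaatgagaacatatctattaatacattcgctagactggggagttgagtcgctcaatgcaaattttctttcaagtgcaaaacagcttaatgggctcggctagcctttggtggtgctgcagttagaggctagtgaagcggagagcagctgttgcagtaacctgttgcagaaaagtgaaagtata

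For the 3 non-clustered genes that changed, the windows are shown with every CG in capitals, because the zinc finger of KDM2B binds this dinucleotide where it is unmethylated. The arrays measured RNA, so neither methylation nor binding of KDM2B at these windows is known. PCDH7 and PCDH17 lie on the plus strand and PCDH18 on the minus strand, and each sequence is written in the direction of its gene.
PCDH7 (chr4:30720119-30720418): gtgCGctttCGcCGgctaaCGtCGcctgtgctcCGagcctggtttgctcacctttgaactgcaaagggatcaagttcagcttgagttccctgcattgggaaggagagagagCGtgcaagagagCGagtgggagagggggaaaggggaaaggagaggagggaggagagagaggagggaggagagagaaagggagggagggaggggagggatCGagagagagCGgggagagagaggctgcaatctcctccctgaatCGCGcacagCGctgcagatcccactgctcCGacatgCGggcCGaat
PCDH17 (chr13:57631494-57631793): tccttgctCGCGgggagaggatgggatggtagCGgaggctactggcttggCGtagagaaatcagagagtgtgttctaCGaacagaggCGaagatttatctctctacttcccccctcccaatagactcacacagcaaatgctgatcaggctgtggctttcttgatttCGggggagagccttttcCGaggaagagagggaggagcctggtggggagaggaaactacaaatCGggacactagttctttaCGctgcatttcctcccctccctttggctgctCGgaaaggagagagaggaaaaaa
PCDH18 (chr4:137532445-137532744): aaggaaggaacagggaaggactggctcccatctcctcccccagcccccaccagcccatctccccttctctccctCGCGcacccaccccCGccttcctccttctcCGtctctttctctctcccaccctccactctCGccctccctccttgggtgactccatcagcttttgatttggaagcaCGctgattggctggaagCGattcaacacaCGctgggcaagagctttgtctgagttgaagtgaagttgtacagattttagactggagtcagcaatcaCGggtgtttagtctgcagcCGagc

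The PCDH7 window held 16 CG, the PCDH17 window 11 and the PCDH18 window 10. Their observed over expected CpG ratios were 0.667 for PCDH7, 0.543 for PCDH17 and 0.438 for PCDH18. The median of all windows was 0.579, with quartiles of 0.229 and 0.856, so these windows lay inside the middle range of promoters. Group medians were 0.593 for PCDHA, 0.631 for PCDHB, 0.635 for PCDHG and 0.527 for non-clustered windows. The median CG count was 14 over all windows. Windows of non-clustered genes that were not called held from 2 CG (a PCDH11X window) to 26 (PCDH19). A link between CG content and the calls was not tested.

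All values that follow are deposited log2 values, each the difference from its probe set's own median across the 6 arrays, averaged over the probe sets of a gene. They show differences between arrays and hold no absolute level, so neither how strongly a protocadherin is expressed in U87 cells nor whether its probes lie above background is known. Fold changes are knockdown over control, SE and p-values come from limma fitted to every gene, and calls were made at a Benjamini-Hochberg adjusted p under 0.05. PCGF1 itself was at 74.3% of the control level in the knockdown arrays (95% interval 67.8 to 81.5%, adjusted p = 0.00410), measured by 1 probe set. Array medians lay between -0.00238 and 0.00399. In RNA of whole cultures, more cells with a transcript and more of it per cell cannot be told apart.

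Of the 67 protocadherin genes, 7 rose and 0 fell in the knockdown arrays. That is 10.4% of the family, and the share called among all genes was 11% (6.36% higher and 4.63% lower). The family's share was near that background, and its median log2 fold change of -0.003 was close to the median of all genes, -0.01. The 7 genes were PCDHB5, PCDHB6, PCDHB10 and PCDHB14 of the PCDHB cluster and the non-clustered PCDH7, PCDH17 and PCDH18. All 3 knockdown arrays lay above all 3 control arrays for 15 members and below them for 4, and this happened in 17.1% and 15.5% of all genes. An unadjusted p under 0.05 was reached by 18 of the 67 members, beside 26.6% of all genes. The median spread between arrays of a group, as residual SD, was 0.0863 for the family, against 0.0617 for all genes. The family's values average 126 probe sets over 67 genes, and those of all genes 44988 over 18132. Averaging fewer probe sets per gene can itself raise the spread.

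**Figure D1:**
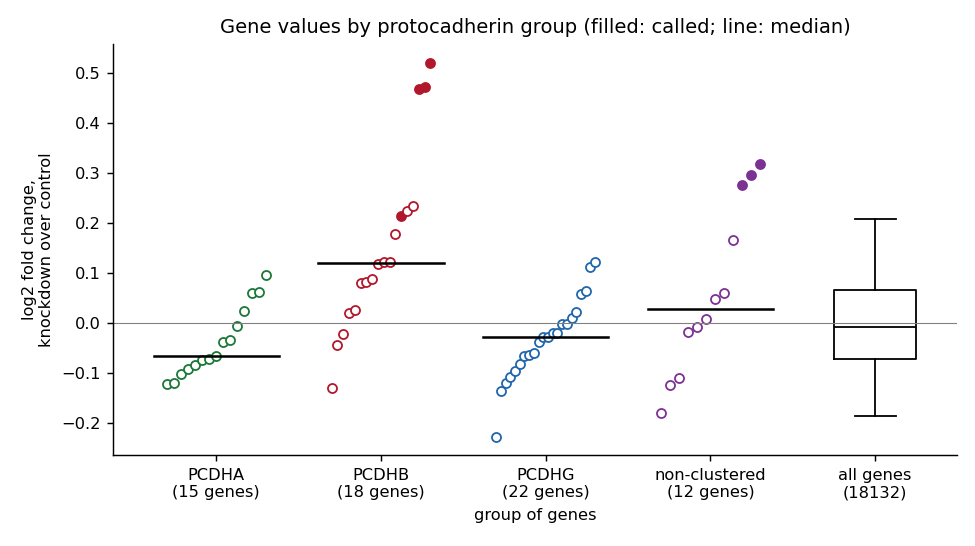
Log2 fold changes (knockdown over control, vertical axis) of the 67 protocadherin genes by group, 1 point a gene, filled where called, with a line at each group's median. The box shows all 18132 genes (median, quartiles, whiskers at percentiles 5 and 95). The 7 called genes lie between 0.22 and 0.52, in the PCDHB and non-clustered groups.

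Among the 12 non-clustered genes, 3 were higher and 0 lower, or 25% beside 11% of all genes. PCDH18, a delta-type protocadherin whose mouse protein binds the adaptor Dab1, had log2 signals of 0.12, 0.20 and 0.10 in the knockdown arrays, against -0.24, -0.17 and -0.13 in the control arrays. The groups did not overlap, and every control array was below every knockdown array by more than the range within either group. Its fold was 1.25 (95% interval 1.16 to 1.34), or 0.32 ± 0.05 on the log2 scale (SE, adjusted p = 0.00582).

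PCDH7, also delta-type and known to bind the chromatin regulator SET, had 0.12, 0.13 and 0.12 in the knockdown arrays and -0.28, -0.08 and -0.17 in the control arrays. The knockdown arrays were nearly alike, the control arrays were spread, and the groups did not overlap. The fold was 1.23 (1.13 to 1.34), or 0.30 ± 0.05 on the log2 scale (adjusted p = 0.0133). PCDH17, which in mouse axons recruits the actin-regulating WAVE complex to sites of contact, had 0.11, 0.16 and 0.15 in the knockdown arrays and -0.13, -0.14 and -0.13 in the control arrays. Both groups were tight and stood clear of each other. Its fold was 1.21 (1.14 to 1.28), or 0.28 ± 0.04 on the log2 scale (adjusted p = 0.00378), and it had the smallest adjusted p of the family.

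The other 9 non-clustered genes were not called. PCDH9, a delta-type protocadherin, was nearest, with 0.09, 0.11 and 0.04 in the knockdown arrays and -0.12, -0.13 and -0.0048 in the control arrays. The groups did not overlap, with the third control array close to the knockdown arrays, and the log2 fold change of 0.17 missed the threshold (adjusted p = 0.0633). PCDH8, whose rat form arcadlin drives internalisation of N-cadherin at synapses, had a log2 fold change of -0.12 (adjusted p = 0.0897), with all knockdown arrays below all control arrays. PCDH20 had -0.01, -0.04 and -0.09 in the knockdown arrays, against 0.23, 0.19 and -0.02 in the control arrays. Only the third control array reached into the knockdown range, and the log2 fold change was -0.18 (adjusted p = 0.130). Without that array it was -0.26 and was called (adjusted p = 0.0301).

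The remaining 6 stayed between -0.11 and 0.06. PCDH10, which binds the WAVE subunit NCKAP1, had a log2 fold change of 0.06 (95% interval -0.03 to 0.15), and PCDH19, mutated in an epilepsy of girls, had -0.01 (-0.15 to 0.13). PCDH15, part of the tip link of inner ear hair cells, had -0.02, and PCDH12, found on endothelial cells, had 0.05. PCDH1 had 0.01 and PCDH11X had -0.11. The adjusted p-values of these 6 ran from 0.358 for PCDH11X to 0.955 for PCDH19.

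**Figure D2:**
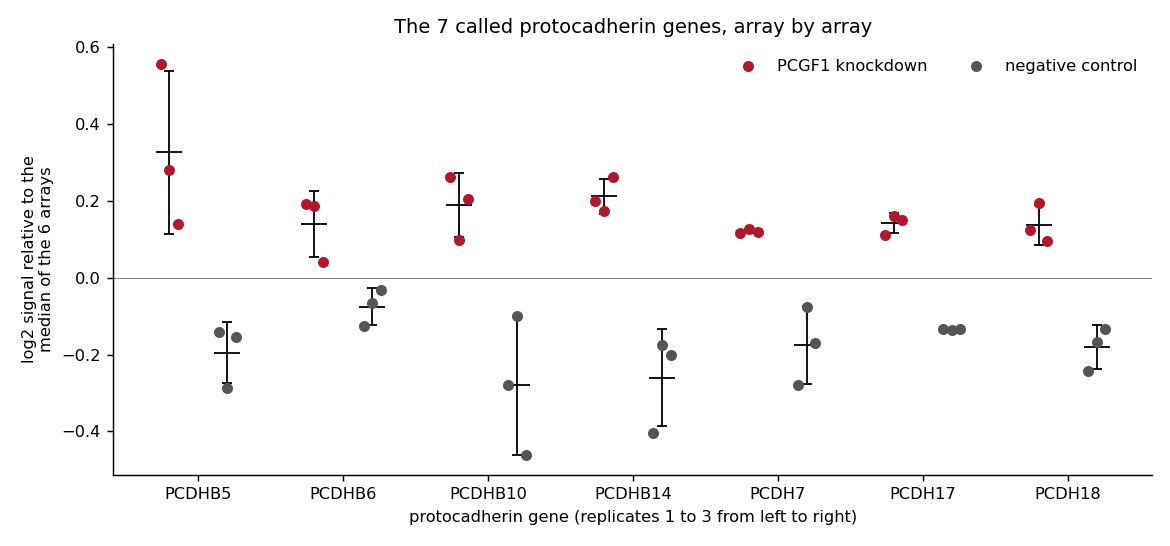
Log2 difference from the 6-array median (vertical axis) for the 7 called protocadherin genes, knockdown arrays in red left of control arrays in grey, with the mean and SD of each group (n = 3 each). The groups do not overlap for any of the 7, and the spread is widest for PCDHB5 in the knockdown arrays and for PCDHB10 in the control arrays.

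In the PCDHB cluster, 4 of 18 genes were higher and 0 lower, or 22.2% beside 11% of all genes. Log2 fold changes were above 0 for 15 of the 18, beside 8457 of all 18132 genes. PCDHB5 had the largest change of the family, with 0.56, 0.28 and 0.14 in the knockdown arrays and -0.14, -0.29 and -0.155 in the control arrays. All knockdown arrays were above all control arrays, and the first knockdown array was far above the other two. Its fold was 1.44 (95% interval 1.23 to 1.68), or 0.52 ± 0.10 on the log2 scale (SE, adjusted p = 0.0155). Without the second control array it was not called (adjusted p = 0.0552).

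PCDHB14 had 0.20, 0.17 and 0.26 in the knockdown arrays and -0.40, -0.17 and -0.20 in the control arrays. The groups stood apart in all arrays, with the first control array lowest. The fold was 1.39 (1.25 to 1.54), or 0.47 ± 0.06 on the log2 scale (adjusted p = 0.00443), the smallest adjusted p of the cluster. PCDHB10 had 0.26, 0.10 and 0.205 in the knockdown arrays and -0.28, -0.10 and -0.46 in the control arrays. The groups did not overlap, but the control arrays were widely spread. The fold was 1.38 (1.20 to 1.60), or 0.47 ± 0.09 on the log2 scale (adjusted p = 0.0153), and the call was lost without the first knockdown array (adjusted p = 0.0604), the third knockdown array (0.0536) or the first control array (0.0507).

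PCDHB6 had 0.19, 0.19 and 0.04 in the knockdown arrays, against -0.13, -0.07 and -0.03 in the control arrays. The third arrays of the groups lay close together, though without overlap. Its fold of 1.16 (1.07 to 1.26), or 0.22 ± 0.05 on the log2 scale, had an adjusted p of 0.0398. This call was lost without any single array other than the third knockdown array (adjusted p 0.0733 to 0.116), and also without probe sets named _s_at or _x_at, where the log2 fold change was 0.13 (adjusted p = 0.372). With the first knockdown array or the first control array left out, 2 PCDHB genes were called in place of 4.

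The other 14 PCDHB genes had log2 fold changes from -0.13 to 0.23 and adjusted p-values of at least 0.0812. At the upper end PCDHB7 had 0.23, with all knockdown arrays above all control arrays. At the lower end PCDHB4 had -0.13 (adjusted p = 0.109), with all knockdown arrays below all control arrays, and PCDHB1 had -0.04 (adjusted p = 0.866). PCDHB1 is the gene whose promoter window lacks the word printed above, and its interval, -0.34 to 0.25, was wide. The pseudogenes PCDHB17P and PCDHB18P both had 0.08, and neither was called. Across the cluster, 10 genes had all knockdown arrays above all control arrays and 1 had them below, beside 17.1% and 15.5% of all genes, and 10 of 18 had an unadjusted p under 0.05, beside 26.6% of all genes. The median log2 fold change of the 18 genes was 0.12.

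**Figure D3:**
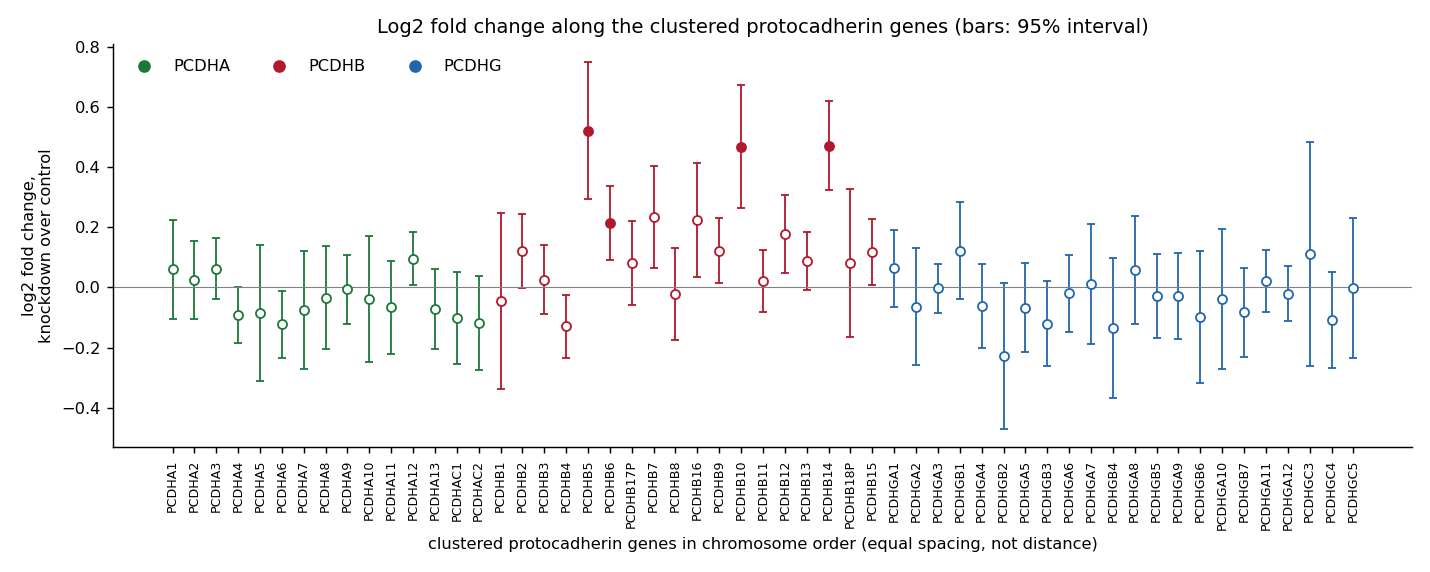
Log2 fold changes (knockdown over control, vertical axis) with 95% intervals for the 55 clustered genes in chromosome order, evenly spaced, filled where called. The 4 filled points, PCDHB5, PCDHB6, PCDHB10 and PCDHB14, lie inside the PCDHB cluster with uncalled members between and beside them, and no PCDHA or PCDHG gene is filled.

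Of the 15 PCDHA genes 0 were called (limma, 2 with an unadjusted p under 0.05). Among all genes 11% were called and 26.6% had an unadjusted p under 0.05. Log2 fold changes of the PCDHA genes ran from -0.12 to 0.10 with a median of -0.07, and adjusted p-values from 0.151 to 0.953. PCDHA6 and PCDHAC2, at -0.12 each, were lowest, and PCDHA12 at 0.10 and PCDHA3 at 0.06 were highest. PCDHA12 had 0.02, 0.07 and 0.07 in the knockdown arrays and -0.02, -0.08 and -0.04 in the control arrays, without overlap (adjusted p = 0.158). PCDHA6 had -0.01, -0.02 and -0.08 in the knockdown arrays and 0.07, 0.16 and 0.01 in the control arrays, again without overlap but with small gaps. The 95% intervals of the 15 genes reached from -0.31 to 0.22.

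Of the 22 PCDHG genes 0 were called (limma, 0 with an unadjusted p under 0.05). Among all genes 11% were called and 26.6% had an unadjusted p under 0.05. Log2 fold changes of the PCDHG genes ran from -0.23 to 0.12 with a median of -0.03, and adjusted p-values from 0.216 to 0.996. The groups overlapped for all 22, while they did not overlap for 32.7% of all genes. PCDHGB2 had the lowest value, -0.23, from -0.24, 0.08 and -0.10 in the knockdown arrays and 0.23, 0.27 and -0.08 in the control arrays. The second knockdown array and the third control array crossed into the other group. PCDHGB4 had -0.14, and PCDHGB1 had 0.12 at the upper end.

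PCDHGC3 had 0.53, -0.23 and 0.02 in the knockdown arrays and -0.02, 0.02 and -0.02 in the control arrays. The control arrays were nearly equal while the first knockdown array was high and the second low, and the log2 fold change of 0.11 had an interval of -0.26 to 0.49. C-type genes, PCDHGC3 among them, lie at the ends of the PCDHA and PCDHG clusters and are known to be chosen less at random than the other isoforms. The 5 measured here had log2 fold changes from -0.12 to 0.11, and 0 were called (limma, 0 with an unadjusted p under 0.05). The shares of all genes were 11% called and 26.6% with an unadjusted p under 0.05, so 5 genes are too few to differ from them. The median residual SD of gene values was 0.0974 for PCDHA, 0.0983 for PCDHG, 0.0812 for PCDHB and 0.0546 for non-clustered genes. These values are not on equal terms, because averaging more probe sets per gene can lower the spread. There were 18 probe sets for 15 PCDHA genes and 37 for 22 PCDHG genes, against 33 for 18 PCDHB and 38 for 12 non-clustered genes. The called PCDHB5, PCDHB10 and PCDHB14, with 1 probe set each, had 0.160, 0.141 and 0.0948. A link between spread and calls was not tested.

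The median over the genes of a group was also taken on each array. For PCDHB it was 0.09, 0.01 and 0.08 in the knockdown arrays, against -0.08, -0.07 and -0.04 in the control arrays. The PCDHB groups did not overlap, and the second knockdown array was nearest to the controls. For non-clustered genes it was 0.03, 0.05 and 0.0021 in the knockdown arrays and -0.01, -0.06 and -0.02 in the control arrays, also without overlap. For PCDHA it was -0.03, 0.05 and -0.03 in the knockdown arrays and 0.02, 0.03 and -0.02 in the control arrays. Knockdown and control arrays overlapped for PCDHA and, with medians between -0.02 and 0.05, for PCDHG.

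**Figure D4:**
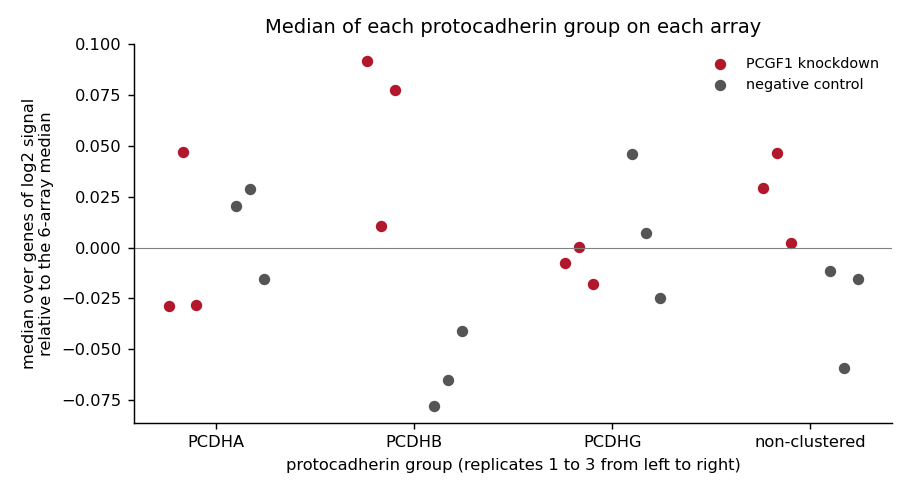
Median over the genes of each group (vertical axis, log2 difference from the 6-array median) on each array, knockdown in red left of control in grey. The 3 red points lie above the 3 grey ones for PCDHB and for non-clustered genes, and the colours overlap for PCDHA and PCDHG.

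The 67 genes were measured by 126 probe sets, of which 37 have names ending in _s_at or _x_at, a mark for probes that can also bind near-identical transcripts. This matters most within the clusters, whose genes are close copies of each other, so that a signal there may be shared between paralogs. Fitted singly, 13 probe sets were higher and 0 lower, beside 7.24% of all 49293 probe sets (4.3% higher and 2.94% lower), and 4 of the 13 were of the _s_at or _x_at kind. They were 6 of the 33 PCDHB and 7 of the 38 non-clustered probe sets, with 0 of 18 for PCDHA and 0 of 37 for PCDHG. With any single array left out, 5 to 7 probe sets were called, and without the second knockdown array 1 of the 7 was lower.

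Probe sets of 1 gene did not always move together. Of the 35 genes with several probe sets, 15 had log2 fold changes of both signs. PCDHB5, PCDHB10 and PCDHB14 rest on 1 probe set each, of which 0 are of the _s_at or _x_at kind. The 3 probe sets of PCDHB6 had 0.04, 0.22 and, for the called one of the _s_at kind, 0.39 (adjusted p = 0.0378). The averages of PCDHB7 and PCDHB13, whose probe sets were singled out after their values were seen, hide opposite values. PCDHB7 had 0.66 (adjusted p = 0.0185) on one and -0.19 (adjusted p = 0.120) on the other. PCDHB13 had 5 probe sets from -0.22 to 0.43, of which only the _x_at one, at 0.43, was called (adjusted p = 0.0111).

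The called non-clustered genes had all their probe sets above 0. PCDH18 had 5 from 0.08 to 0.64, with 3 called. PCDH7 had 5 from 0.15 to 0.51, with 2 called, and PCDH17 had 4 from 0.13 to 0.44, with 2 called. Their averages therefore combine probe sets of one sign and of unequal size. PCDH10, 1 of 4 non-clustered genes with values of both signs, had 4 probe sets from -0.14 to 0.24, none of them called.

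**Figure D5:**
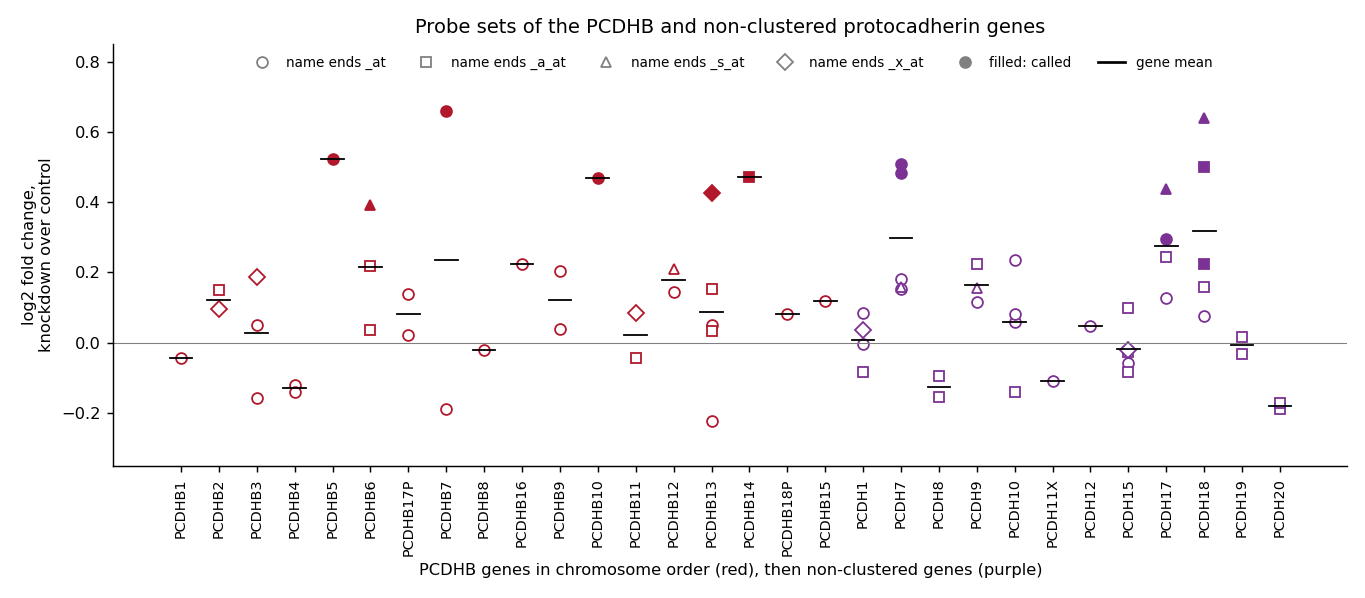
Log2 fold change (knockdown over control, vertical axis) of each probe set of the PCDHB genes in red and the non-clustered genes in purple, with the gene mean as a bar. Marker shapes give the ending of the probe set's name, and filled markers are called. Values lie on both sides of 0 for 4 PCDHB genes, PCDHB7 and PCDHB13 among them, and for 4 non-clustered genes. All probe sets of PCDH7, PCDH17 and PCDH18 lie above 0.

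A further 12 probe sets carry several protocadherin symbols and were left out of the members. Of these, 6 carry all 15 PCDHA symbols and had log2 fold changes from -0.04 to 0.21. Over the 12 the range was -0.09 to 0.21, with adjusted p-values from 0.183 to 0.994. Of the 12, 0 were called (limma, 1 with an unadjusted p under 0.05), beside 7.24% of all probe sets. With so few probe sets, 0 calls is close to that share.

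Genes that act on or with protocadherins were counted from lists chosen with earlier results of these data known. Of 21 measured regulators of clustered promoters, 0 were higher and 2 lower, the cohesin subunits SMC3 (-0.23, adjusted p = 0.0197) and RAD21 (-0.20, adjusted p = 0.0154). CTCF, which binds the clustered promoters, had 0.02 (adjusted p = 0.740). The 2 calls are 9.52% of the list, beside 11% of all genes. Both cohesin calls were open to single arrays: with the second or the third control array left out, 0 regulators were called, without the second knockdown array 3, and without any other single array 1.

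Of 14 measured intracellular partners, 1 was higher and 2 lower, or 21.4% beside 11% of all genes. CYFIP2, a subunit of the WAVE complex, had 0.21 (adjusted p = 0.0256). ABI1, another WAVE subunit, had -0.17 (adjusted p = 0.0218), and the small GTPase CDC42 had -0.18 (adjusted p = 0.0256). The WAVE complex had calls in both directions, and between 0 and 1 of the list were called when any single array was left out. Of 7 measured genes of membrane cleavage, which release protocadherin tails, 1 was higher, or 14.3% beside 11% of all genes. NCSTN, a subunit of gamma-secretase, had 0.20 (adjusted p = 0.0160), and 0 were called without the third knockdown array or any 1 control array. ADAM10, the protease that makes the first cut, had 0.17 and missed the threshold (adjusted p = 0.0533).

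Of 45 measured other members of the cadherin superfamily, 4 were higher and 0 lower, or 8.89% beside 11% of all genes. FAT4, a giant atypical cadherin that binds DCHS1, had 0.38, 0.38 and 0.15 in the knockdown arrays and -0.20, -0.29 and -0.28 in the control arrays. Its groups were far apart, and its log2 fold change of 0.56 ± 0.07 (SE, adjusted p = 0.00281) exceeded that of every protocadherin gene. The others were FAT1 (0.22, adjusted p = 0.0256), the calsyntenin CLSTN1 (0.21, adjusted p = 0.0280) and the N-cadherin gene CDH2 (0.16, adjusted p = 0.0323). Leaving out any single array left 1 or 2 of this list called.

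The genes around the clusters on chromosome 5 were read from RefSeq gene order, 10 measured genes on each side and 2 between the clusters. Protocadherin genes were left out of this list. The non-clustered PCDH1 and PCDH12, which also lie on chromosome 5 on the PCDHG side, are therefore not in it, and neither was called. The 2 between, TAF7, a subunit of the general transcription factor TFIID, and SLC25A2, a mitochondrial ornithine carrier, had log2 fold changes of 0.10 and 0.07 and were not called. Of all 22, 2 were higher and 2 lower, or 18.2% beside 11% of all genes. On the PCDHA side SLC35A4, of the nucleotide sugar transporter family, had -0.25, -0.33 and -0.27 in the knockdown arrays and 0.31, 0.24 and 0.26 in the control arrays. The groups were far apart, and the log2 fold change was -0.55 (adjusted p = 0.000366). On the PCDHG side SPRY4, an inhibitor of receptor tyrosine kinase signalling, had 0.36 (adjusted p = 0.00615) and NDFIP1, an adaptor of NEDD4-type ubiquitin ligases, had 0.20 (adjusted p = 0.0179), while RNF14, a ubiquitin ligase, had -0.20 (adjusted p = 0.0199). With any 1 array other than the third knockdown array left out, 2 of the 22 were called.

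Because the values are centred, the levels of cell type markers are not known, and the glioma label could not be checked against them. Of 7 glioma and glial markers 0 were called (limma, 0 with an unadjusted p under 0.05), with mean log2 signals over the list of -0.07 to -0.02 in the knockdown arrays and -0.02 to 0.08 in the control arrays. The share of all genes called was 11% (6.36% higher). Of 4 neuronal markers 1 was higher, MAP2 (0.36, adjusted p = 0.00496), while log2 fold changes were above 0 for 2 and below 0 for 2 (median 0.05). The neuronal list means were -0.03 to 0.03 in the knockdown arrays and -0.15 to -0.0020 in the control arrays. Of 3 fibroblast markers 1 was higher, PDGFRB (0.28, adjusted p = 0.0223), while the other 2 had log2 fold changes below 0 (median of the list -0.02). The fibroblast list means were 0.0083 to 0.04 in the knockdown arrays and -0.04 to 0.02 in the control arrays. Among 5 epithelial, 3 leukocyte and 3 endothelial markers 0 were called, and an unadjusted p under 0.05 was reached by 1 epithelial, 0 leukocyte and 1 endothelial marker. Endothelial list means were -0.14 to -0.0023 in the knockdown arrays and 0.0010 to 0.09 in the control arrays. Epithelial means were -0.07 to 0.10 in the knockdown arrays and -0.05 to 0.03 in the control arrays, and leukocyte means were -0.02 to 0.06 in the knockdown arrays and -0.03 to 0.0060 in the control arrays. The part of these markers in the protocadherin values was not tested.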

How the data were processed

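Gene expression was measured on 6 Affymetrix arrays, 3 of PCGF1 knockdown and 3 of negative control U87 cells. The deposited table holds 1 log2 value per probe set and array, made by the authors with RMA per the submitters' processing notes. The log base is not recorded and is taken from the naming of RMA. In the deposited log2 values each probe set has a median of 0 across the 6 arrays (largest departure 4.85e-07), and no source describes this centring. No second normalization was applied. Of 49395 probe sets, 102 controls were left out. Those with 1 symbol in the platform annotation (44988) were averaged per gene, which gave 18132 genes. Probe sets with several symbols (1832) or none (2473) named no gene.

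Groups follow the array titles. The groups were compared with limma (version 3.58.1, R 4.3.3) through lmFit and eBayes, two-sided and with no covariates, with Benjamini-Hochberg adjustment over all genes and, in a separate fit, over all 49293 probe sets. A feature was called at an adjusted p under 0.05. The smallest root mean square difference between arrays was 0.135, so none were duplicates. The number of arrays limits the precision. The scripts were tested on simulated data.

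The members, lists and tests were chosen with earlier results of these data known. The genes named are PCGF1, all non-clustered members, in each cluster the called members and the 2 highest and 2 lowest, and called members of the other lists and neighbours. PCDHB7, PCDHB8, PCDHB13, PCDHB17P, PCDHB18P, CTCF and ADAM10, and TAF7 and SLC25A2 between the clusters were named outside this rule, after their values were seen. Coordinates are those of the RefSeq promoter windows, since no build is named for the arrays. Alternatives were quantile normalization, centring of arrays, the replicate number as a block, array weights, robust eBayes, the single most variable probe set per gene, probe sets without _s_at and _x_at names, and leaving out each array.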

Additional observations from a re-analysis of the deposited data

How the results depend on the processing

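PCDH7, PCDH17, PCDH18 and PCDHB14 were called under all 13 alternatives. The family had 5 to 9 called genes throughout, with 0 PCDHA and 0 PCDHG genes under each of the 13 alternatives. Leaving out 1 array at a time gave 5 to 8 called family genes, 2 to 4 PCDHB genes, 3 to 4 non-clustered genes, 5 to 7 single probe sets, 2 to 4 neighbours, 0 to 3 regulators, 0 to 1 partners, 0 to 1 cleavage genes, 1 to 2 other cadherins and 980 to 1402 genes of all. It moved the median log2 fold change between -0.0041 and 0.0127 for the family, -0.0865 and -0.0217 for PCDHA, 0.10 and 0.14 for PCDHB, -0.0713 and -0.0086 for PCDHG, and 0.0050 and 0.0548 for non-clustered genes. The sign of the family's median is thus not settled.

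The labels do not say whether same-numbered arrays were handled together. Deviations of same-numbered arrays correlated at -0.04, -0.05 and 0.01, so no shared deviation was seen. A fit with replicate block called 6 family genes, PCDHB6 not among them (adjusted p = 0.0932), and 8 single probe sets, 2 neighbours, 0 regulators, 0 partners, 0 cleavage genes, 1 other cadherin and 1036 genes of all. The single most variable probe set per gene gave 6 PCDHB genes, 9 family genes, 1474 genes of all, 1 regulator, 1 partner, 2 other cadherins and a PCDHB median of 0.18. Without _s_at and _x_at probe sets there were 2 neighbours, 1 regulator, 0 cleavage genes, 2 other cadherins and a PCDHA median of -0.0203. Array weights gave 2 cleavage genes and lost PCDHB6 (adjusted p = 0.0532). Over the 26 named genes with alternatives, 324 of 337 values kept their side of the threshold and their sign if called, 12 lost a call, 1 gained one and 0 called genes changed sign. The causes were not tested. Absolute signal over background is not known, so which members are too dim to measure cannot be said.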
